A study of Homo sapiens with 30 samples.

Results

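Collagens, laminins and integrin subunits were followed in PC3 cells treated with a PIM kinase inhibitor or with a PROTAC. They were taken as protein-coding genes of the deposited count table whose names are those of collagen chains (COL, number, A, number), laminin chains (LAMA, LAMB or LAMC and a number) or integrins (ITGA or ITGB and further characters). Of 58735 genes in the table, 86 matched, and the 59 with a mean of at least 0.5 CPM, a read count scaled to the library's total, over the 30 libraries are described. These are 26 of 44 collagen genes, 10 of 12 laminin genes, 19 of 26 integrin subunit genes and 4 genes that match by their letters without encoding a subunit (ITGB1BP1, ITGB1BP2, ITGB3BP and ITGBL1). The members were thus chosen by their name and by their mean level in these libraries, and levels are given as a description. Just inside the threshold were ITGB1BP2 (0.682 CPM), COL21A1 (0.802) and COL24A1 (0.872), and just outside it were COL4A3 (0.428) and COL4A4 (0.410).

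PC3 is a prostate cancer cell line. SGI-1776 inhibits the PIM serine/threonine kinases, and SGI-1776-VHL-02 (called the PROTAC from here on) is a molecule made to have a target protein degraded. The design sets the inhibitor against this molecule. The libraries measure RNA, so neither inhibition nor degradation of PIM proteins by either compound is shown here. The 5 groups were PC3 cells treated for 48 h with SGI-1776-VHL-02 at 3750 nM, SGI-1776-VHL-02 at 1500 nM, SGI-1776 at 3750 nM, SGI-1776 at 1500 nM, or the solvent DMSO, with 6 libraries of poly-A RNA each, and the labels name no other treatment or genetic change. In every group 3 libraries are numbered Rep 1 and 3 are numbered Rep 2, and nothing states which come from separate cultures, so the p-values measure the spread between libraries, which may be technical.

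Collagens are matrix proteins whose chains wind into a triple helix, some building fibrils, others the network of the basement membrane, and a few spanning the cell membrane. Laminins are cross-shaped trimers of an alpha, a beta and a gamma chain and form the other network of the basement membrane, the sheet on which epithelial cells sit. Integrins are receptors of an alpha and a beta subunit that tie the cytoskeleton to these proteins and signal in both directions. In prostate epithelium the pairs of ITGA6 with ITGB4 and of ITGA3 with ITGB1 are known as receptors for laminin.

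Library totals ran from 22520292 to 48968707 counts. Mitochondrial genes took 0.296 to 1.67% of counts in Rep 2 libraries and 1.94 to 3.96% in Rep 1 libraries, and 4 libraries lay under 0.5%: 2 with 1500 nM PROTAC, 1 with 3750 nM SGI-1776 and 1 with DMSO. All 4 epithelial markers were present, KRT8 at 529 CPM on average and EPCAM at 102 CPM, while KLK3 had no count in any library. Of 6 fibroblast markers, DCN was at 0 in 18 libraries and FAP in 21, and their sum lay between 1.81 and 2.71 CPM with 3750 nM PROTAC, 1.80 and 2.24 with 1500 nM PROTAC, 1.84 and 3.55 with 3750 nM SGI-1776, 1.55 and 2.24 with 1500 nM SGI-1776, and 1.45 and 2.13 with DMSO. Of 5 endothelial markers, CDH5 was at 0 in 23 libraries and VWF in 10, with sums of 10.2 to 13.5 CPM with 3750 nM PROTAC, 8.55 to 10.1 with 1500 nM PROTAC, 9.81 to 14.7 with 3750 nM SGI-1776, 9.55 to 12.1 with 1500 nM SGI-1776, and 8.38 to 11.9 with DMSO, nearly all of it from PECAM1 and KDR. The 6 leukocyte markers summed to between 0.406 and 1.29 CPM over the 30 libraries, and CD3E was at 0 in 27. The part of the summed marker levels in the results below was not tested. In bulk RNA, fewer cells of a kind and less RNA per cell cannot be told apart.

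Without either compound, PC3 RNA in each family was highest for COL6A2 and COL6A1, laminin chains of epithelial basement membrane, and laminin receptor subunits. Levels between genes are compared as TPM, which also divides by gene length. The length used counts all annotated exon bases of a gene, so TPM can be too low where transcripts use only part of them. Among collagens in DMSO libraries, COL6A2 averaged 1326 ± 79.2 TPM (SD, n = 6) and COL6A1 1188 ± 75.2 TPM, which encode chains that join with that of COL6A3 into the beaded filaments of type VI collagen. COL6A3 itself averaged 29.1 ± 2.18 TPM. COL5A2, a chain of the fibril-starting type V collagen, followed at 154 ± 8.76 TPM, and COL18A1, a basement membrane collagen, at 94.8 ± 5.75 TPM. The lowest members were COL21A1 (0.389 ± 0.113 TPM) and COL24A1 (0.351 ± 0.147 TPM), which did not differ beyond their spread.

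Of the laminins, 7 chains averaged 61.1 TPM or more and 3 averaged 4.48 TPM or less. LAMB3 averaged 255 ± 25.96 TPM and LAMA3 61.1 ± 3.22 TPM, both chains of the laminin that anchors epithelial cells under hemidesmosomes. The lengths used were 4688 bases for LAMB3 and 14678 for LAMA3. In CPM, LAMB3 averaged 311 and LAMA3 233 with DMSO, so much of their gap in TPM comes with the length. LAMA5 (251 ± 41.7 TPM) lay within the spread of LAMB3, while LAMA4, an alpha chain best known from blood vessels and muscle, averaged 1.91 ± 0.383 TPM. ITGB1, the beta subunit shared by many integrins, led its family at 860.2 ± 78.1 TPM, ahead of its laminin-binding partner ITGA3 (549.6 ± 24.3 TPM), ITGB4 (328 ± 15.7 TPM) and ITGA6 (173 ± 15.5 TPM). At the low end stood ITGB3 (0.811 ± 0.169 TPM) and ITGA4 (0.744 ± 0.0653 TPM), whose ranges of mean ± SD overlapped. The level of ITGB3 is uncertain, as 51.6% of its exon bases overlap another annotated gene on the same strand.

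**Figure D1:**
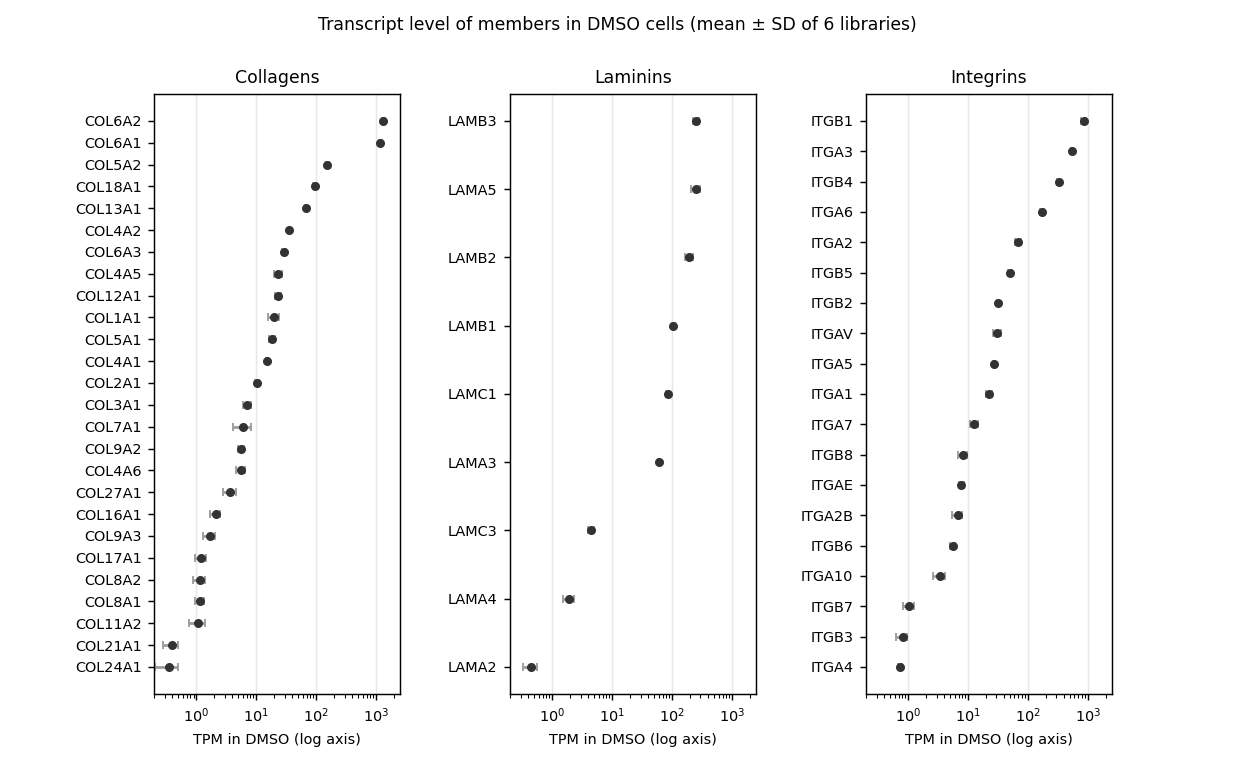
Mean TPM in the 6 DMSO libraries (log axis, bars SD) for 26 collagens, 9 of the 10 laminins and 19 integrin subunits, each family ordered by level. Members span from 0.351 TPM (COL24A1) to 1326 TPM (COL6A2).

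Against DMSO, 8 of the 26 collagens were lower with 3750 nM PROTAC (COL2A1, COL21A1, COL3A1, COL9A2, COL6A3, COL4A1, COL4A2 and COL5A2), and ITGA3 and LAMA4 were higher. With 3750 nM SGI-1776, LAMA4, COL2A1, COL17A1, ITGA10 and ITGB3 were higher, and COL6A3, COL12A1, LAMB3 and ITGA4 were lower. A gene is said to rise, fall or change where its Benjamini-Hochberg adjusted p from edgeR's quasi-likelihood test, written FDR below, was under 0.05 over the 17499 genes tested. Changes are log2 fold changes with their standard error (SE). All 59 members passed the low-count filter and were tested, as were 2 of the 27 matching genes under 0.5 CPM. All 4 comparisons use the same 6 DMSO libraries. The fit had no term for Rep, so shifts shared by the libraries of a Rep stayed in its error.

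With 3750 nM PROTAC 7 members rose and 12 fell, or 32.2% of members, against 21.8% of all genes tested (11.5% higher and 10.3% lower). All 8 collagens that changed fell, and the median log2 fold change was -0.21 over the 26 collagens and 0.0025 over all genes. Of the laminins 3 rose and 1 fell, and of the integrin subunits 4 rose and 3 fell. With Rep as a replicate block 29 members passed, 10 higher and 19 lower, and 30.1% of all genes did. With the 3 libraries of each Rep summed and no block 7 members passed, and 2.34% of all genes. With 1500 nM PROTAC 6 members fell and none rose (10.2%, against 1.92% of all genes, 0.851% lower and 1.07% higher). They were COL21A1, COL2A1, COL9A2, COL4A1, COL4A2 and ITGB6; DESeq2 also called none higher, and 3 were higher at an unadjusted p under 0.05. With Rep as a block 16 passed, and 9.42% of all genes. Without the 4 libraries under 0.5% mitochondrial counts 3 members passed, without a low-count filter 3, and with only the 2 groups compared 2. Summed per Rep without a block, edgeR called none of the members and 0.0% of all genes, and 8 members had an unadjusted p under 0.05. The share of all genes was not counted without those libraries, without the filter, with only the groups compared, or at an unadjusted p.

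With 3750 nM SGI-1776 19 members rose and 13 fell (54.2%, against 35.6% of all genes, 17.2% higher and 18.4% lower). Among collagens 7 rose and 6 fell, among laminins 4 rose and 1 fell, and among integrin subunits 8 rose and 3 fell. The median log2 fold change was 0.041 for collagens, 0.087 for laminins and 0.21 for integrin subunits, beside 0.0086 for all genes. Summed per Rep without a block 13 members passed, and 9.95% of all genes. With 1500 nM SGI-1776 10 members rose and 5 fell (25.4%, against 12.9% of all genes, 5.28% higher and 7.65% lower). With Rep as a block 24 members passed at this dose, and 21.6% of all genes. With libraries summed per Rep and no block edgeR called none of the members and 0.0% of all genes, and 15 members had an unadjusted p under 0.05. Unadjusted p-values were counted for members only.

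**Figure D2:**
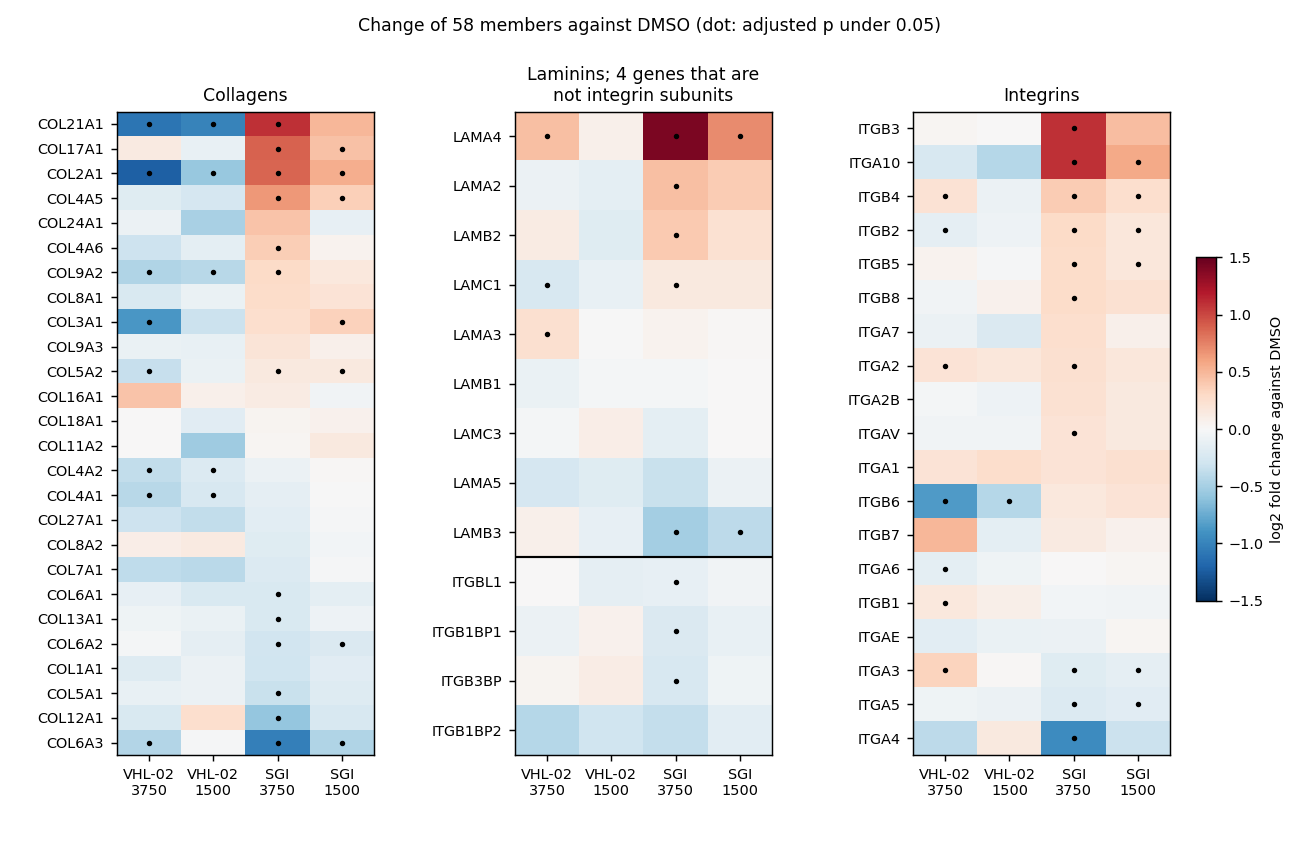
Log2 fold change against DMSO (colour) of 58 of the 59 members in 4 comparisons (columns: SGI-1776-VHL-02 and SGI-1776 at 3750 and 1500 nM), ordered within each family by the value with 3750 nM SGI-1776; a dot marks an FDR under 0.05. Of the collagens that passed with 3750 nM PROTAC all 8 are blue, while with 3750 nM SGI-1776 7 are red and 6 blue.

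COL2A1 (ENSG00000139219, chromosome 12, 47972965 to 48004554) encodes the fibrillar collagen of cartilage. Lowest, median and highest of the 6 libraries, here and below, COL2A1 had 5.51, 6.95 and 10.9 CPM with 3750 nM PROTAC and 9.15, 12.7 and 13.9 CPM with 1500 nM PROTAC. For COL2A1, SGI-1776 gave 29, 32.8 and 36.8 CPM at 3750 nM and 23.8, 26.04 and 30.3 CPM at 1500 nM, against 15.8, 18.3 and 19.4 CPM with DMSO. Each compound at each dose left a range that did not overlap that of DMSO, below it with the PROTAC and above it with SGI-1776. COL2A1 was the 1 member that passed in all 4 comparisons with DMSO: -1.23 ± 0.12 (SE, FDR = 7.23e-09) with 3750 nM PROTAC, -0.56 ± 0.12 (FDR = 0.00757) with 1500 nM PROTAC, 0.88 ± 0.11 (FDR = 3.51e-07) with 3750 nM SGI-1776 and 0.55 ± 0.11 (FDR = 0.00136) with 1500 nM SGI-1776. The value with 3750 nM PROTAC was -1.600 in Rep 1 alone and -0.95 in Rep 2 alone, and both passed; that with 1500 nM PROTAC was -0.74 in Rep 1 alone (FDR = 1.38e-04) and -0.42 in Rep 2 alone (FDR = 0.103).

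COL21A1 (ENSG00000124749, chromosome 6, 56056590 to 56394094) encodes a collagen of the FACIT class, which sits on the surface of fibrils. Its counts were among the lowest of the members, and it had 0.106, 0.356 and 0.471 CPM with 3750 nM PROTAC and 0.178, 0.371 and 0.558 CPM with 1500 nM PROTAC. For COL21A1, SGI-1776 gave 0.971, 1.59 and 2.005 CPM at 3750 nM and 0.824, 1.01 and 1.23 CPM at 1500 nM, against 0.406, 0.731 and 0.952 CPM with DMSO. All 12 PROTAC libraries lay below all 12 SGI-1776 libraries. COL21A1 passed the 0.5 CPM threshold through the groups where it was high, since its mean with the PROTAC was under 0.5 CPM at both doses. COL21A1 changed by -1.09 ± 0.28 (SE, FDR = 0.00465) with 3750 nM PROTAC, by -0.998 ± 0.27 (FDR = 0.0499) with 1500 nM PROTAC and by 1.09 ± 0.24 (FDR = 4.49e-04) with 3750 nM SGI-1776. With 1500 nM SGI-1776 its value of 0.50 ± 0.24 (FDR = 0.196) did not pass. The fall with 3750 nM PROTAC was -1.52 in Rep 1 alone (FDR = 0.0149) and -0.70 in Rep 2 alone (FDR = 0.237), and neither Rep alone passed with 1500 nM PROTAC (FDR = 0.118 and 0.314).

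COL3A1 (ENSG00000168542, chromosome 2, 188974320 to 189012746), the fibrillar type III chain of skin and vessels, had 5.26, 6.71 and 8.83 CPM with 3750 nM PROTAC and 8.31, 10.1 and 12.01 CPM with 1500 nM PROTAC. For COL3A1, SGI-1776 gave 13.3, 15.2 and 16.8 CPM at 3750 nM and 14.9, 15.4 and 17.9 CPM at 1500 nM, against 11.03, 11.6 and 15.3 CPM with DMSO. Every library with 3750 nM PROTAC lay below every DMSO library. It fell with 3750 nM PROTAC (-0.87 ± 0.11 (SE, FDR = 4.53e-07); -1.02 in Rep 1 alone and -0.76 in Rep 2 alone) and rose with 1500 nM SGI-1776 (0.35 ± 0.10 (FDR = 0.0235)). With 3750 nM SGI-1776 it was at 0.25 ± 0.11 (FDR = 0.0641), and passed with Rep as a block (FDR = 0.0385). The rise with 1500 nM SGI-1776 did not pass in Rep 1 alone (FDR = 0.130) or in Rep 2 alone (0.0560).

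COL9A2 (ENSG00000049089, chromosome 1, 40300487 to 40317813), a FACIT chain that decorates type II fibrils, had 3.68, 4.62 and 5.43 CPM with 3750 nM PROTAC and 3.84, 4.63 and 5.63 CPM with 1500 nM PROTAC. For COL9A2, SGI-1776 gave 6.47, 7.59 and 8.91 CPM at 3750 nM and 5.86, 6.94 and 8.38 CPM at 1500 nM, against 5.13, 6.43 and 7.06 CPM with DMSO. Its ranges with the PROTAC overlapped that of DMSO, and its log2 fold change was -0.45 ± 0.11 (SE, FDR = 0.00267) at 3750 nM and -0.41 ± 0.11 (FDR = 0.0405) at 1500 nM of the PROTAC, against a rise of 0.29 ± 0.11 (FDR = 0.0354) with 3750 nM SGI-1776. COL5A2 had 217, 236 and 246 CPM with 3750 nM PROTAC, 292, 336 and 353 CPM with 3750 nM SGI-1776 and 277, 297 and 315 CPM with DMSO. It fell with 3750 nM PROTAC (-0.35 ± 0.04 (FDR = 7.54e-08)), with no overlap of the groups, and rose with SGI-1776 at 3750 nM (0.15 ± 0.04 (FDR = 0.00351)) and 1500 nM (0.15 ± 0.04 (FDR = 0.0101)).

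**Figure D3:**
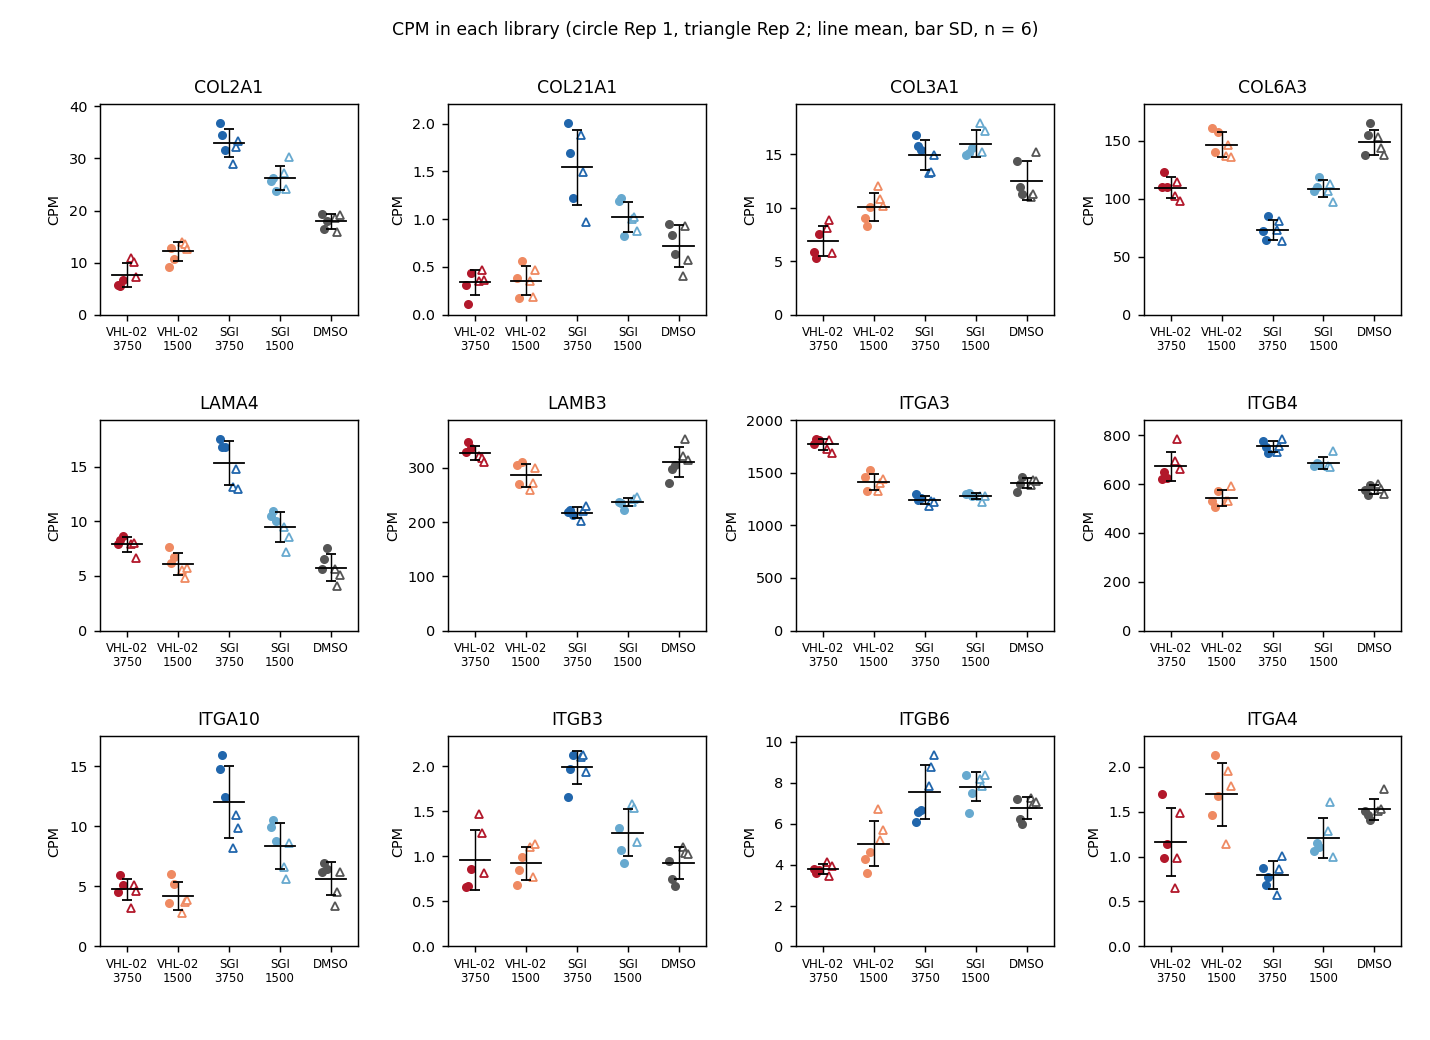
CPM in each library (circles Rep 1, triangles Rep 2) for 12 members in the 5 groups, with the mean and SD of 6 libraries; VHL-02 stands for SGI-1776-VHL-02, SGI for SGI-1776, and doses are in nM. COL2A1 lies below DMSO in all 12 PROTAC libraries and above it in all 12 SGI-1776 libraries, LAMA4 is highest with 3750 nM SGI-1776 (median 15.8 CPM), and ITGA3 is highest with 3750 nM PROTAC (1692 to 1821 CPM).

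Type IV collagen, the network collagen of basement membranes, is encoded by pairs of genes that lie head to head and share the region between their starts. Both such pairs with members here are shown because the genes of a pair can then be compared for moving together. In the RefSeq promoter window of COL4A2 (GRCh38.p14, chr13:110307034-110307333, plus strand), capitals mark the 126 bases between the RefSeq starts of COL4A1, which runs to the left, and COL4A2, which runs to the right. In the coordinates of the count table, given below, these genes overlap, so the 126 bases hold for the RefSeq starts only. In the RefSeq window of COL4A5 (GRCh38.p14, chrX:108439588-108439887, plus strand), capitals mark the 121 bases that also lie in the window of the COL4A6 start at 108439458, which is 379 bases away on the other strand. A further COL4A6 start, at 108438422, lies 1415 bases away, and its window does not overlap that of COL4A5.
COL4A2: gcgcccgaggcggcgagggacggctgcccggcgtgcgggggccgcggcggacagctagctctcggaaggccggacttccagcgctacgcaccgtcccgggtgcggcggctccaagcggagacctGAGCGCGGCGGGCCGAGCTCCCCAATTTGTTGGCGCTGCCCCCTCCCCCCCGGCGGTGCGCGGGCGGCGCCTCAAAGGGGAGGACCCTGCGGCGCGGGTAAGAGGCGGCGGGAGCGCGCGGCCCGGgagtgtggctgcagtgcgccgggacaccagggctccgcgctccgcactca
COL4A5: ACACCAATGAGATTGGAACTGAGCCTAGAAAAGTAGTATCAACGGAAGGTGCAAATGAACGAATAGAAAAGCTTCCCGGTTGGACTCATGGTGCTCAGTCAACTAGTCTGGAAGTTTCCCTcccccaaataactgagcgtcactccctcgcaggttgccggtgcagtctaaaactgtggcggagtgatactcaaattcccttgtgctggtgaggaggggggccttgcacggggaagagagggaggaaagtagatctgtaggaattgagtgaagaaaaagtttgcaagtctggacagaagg
GC content was 77.7% in the COL4A2 window and 49.3% in the COL4A5 window. The COL4A2 window held the letters CCAAT at position -105 from the COL4A2 start and GGGCGG, the GC box, at position -65, both within the capitals. The COL4A5 window held CCAAT at position -247 and its reverse complement ATTGG at position -239 from the COL4A5 start, also within the capitals, and no GGGCGG. Both strands were searched, also for a TATA box (TATAAA), an AP-1 site (TGANTCA), a FOXO site (GTAAACA) and a TEAD site (GGAATG), and neither window held any of these. Of 35116 RefSeq promoter windows of 300 bases, 34.6% held CCAAT and 45% held GGGCGG; of 62 windows of the 45 members found there, 24.2% and 59.7% did.

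COL4A1 (ENSG00000187498, chromosome 13, 110148963 to 110307233) and COL4A2 (ENSG00000134871, chromosome 13, 110305812 to 110513209) encode the chains found in nearly all basement membranes. COL4A1 had 39.98, 44.2 and 46.9 CPM with 3750 nM PROTAC and 44.7, 48.04 and 58.8 CPM with 1500 nM PROTAC. For COL4A1, SGI-1776 gave 47.5, 54.5 and 57.2 CPM at 3750 nM and 52.8, 59.1 and 61.1 CPM at 1500 nM, against 56.6, 58.2 and 62.2 CPM with DMSO. COL4A2 had 128, 142 and 144 CPM with 3750 nM PROTAC and 145, 153 and 169 CPM with 1500 nM PROTAC. For COL4A2, SGI-1776 gave 157, 170.3 and 177 CPM at 3750 nM and 173, 180.5 and 194 CPM at 1500 nM, against 174, 178 and 190.2 CPM with DMSO. Both were lowest with 3750 nM PROTAC, where neither overlapped DMSO. COL4A1 fell with the PROTAC, at -0.42 ± 0.06 (SE, FDR = 1.56e-06) with 3750 nM and -0.24 ± 0.06 (FDR = 0.0227) with 1500 nM; the lower dose did not pass in Rep 1 alone (FDR = 0.114). COL4A2 fell as well, at -0.37 ± 0.04 (FDR = 2.34e-08) with 3750 nM and -0.21 ± 0.04 (FDR = 0.00248) with 1500 nM. With 3750 nM SGI-1776 the values were -0.13 ± 0.06 (FDR = 0.0680) for COL4A1 and -0.089 ± 0.04 (FDR = 0.0786) for COL4A2, and both passed with Rep as a block (FDR = 0.0156 and 0.0258).

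COL4A5 (ENSG00000188153, chromosome X, 108439844 to 108697545) and COL4A6 (ENSG00000197565, chromosome X, 108155607 to 108439497) encode chains of the type IV network of epithelial basement membranes. COL4A5 had 53.8, 64.2 and 72.98 CPM with 3750 nM PROTAC and 50.9, 58.9 and 72.8 CPM with 1500 nM PROTAC. For COL4A5, SGI-1776 gave 90.3, 114 and 141 CPM at 3750 nM and 74.5, 91.96 and 116 CPM at 1500 nM, against 58.3, 73.03 and 88 CPM with DMSO. COL4A6 had 8.38, 11.3 and 12.98 CPM with 3750 nM PROTAC and 10.6, 11.9 and 14.4 CPM with 1500 nM PROTAC. For COL4A6, SGI-1776 gave 13.8, 16.6 and 23.4 CPM at 3750 nM and 11.2, 14 and 16.6 CPM at 1500 nM, against 9.96, 13.2 and 17.1 CPM with DMSO. Both were highest with 3750 nM SGI-1776, where COL4A5 did not overlap DMSO and COL4A6 did. COL4A5 rose with SGI-1776 at 3750 nM (0.65 ± 0.12 (SE, FDR = 5.27e-05)) and 1500 nM (0.36 ± 0.12 (FDR = 0.0431)), and COL4A6 rose at 3750 nM (0.37 ± 0.14 (FDR = 0.0367)), with 0.051 ± 0.14 (FDR = 0.881) at 1500 nM. With the PROTAC at 3750 nM neither passed, COL4A5 at -0.18 ± 0.12 (FDR = 0.334) and COL4A6 at -0.31 ± 0.14 (FDR = 0.127), although COL4A6 passed with Rep as a block (FDR = 0.00236). COL4A6 was lower in Rep 2 than in Rep 1 in all 5 groups without overlap (mean log2 difference -0.41).

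**Figure D4:**
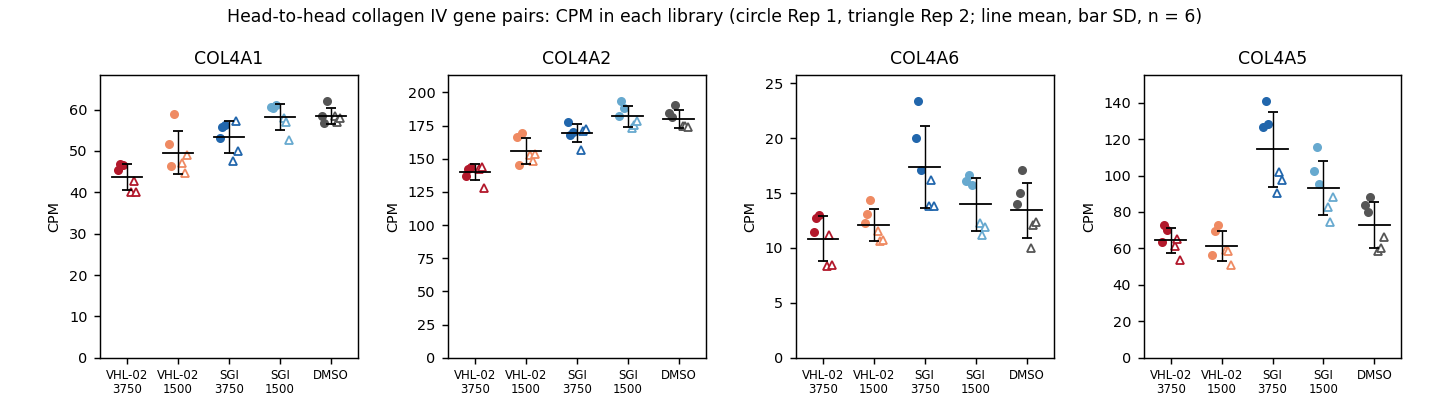
CPM in each library for the head-to-head pairs COL4A1 and COL4A2, and COL4A6 and COL4A5 (circles Rep 1, triangles Rep 2, mean and SD of 6 libraries; doses in nM). COL4A1 and COL4A2 are lowest with 3750 nM SGI-1776-VHL-02 (medians 44.2 and 142 CPM), whereas COL4A6 and COL4A5 are highest with 3750 nM SGI-1776 (medians 16.6 and 114 CPM).

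COL6A3 (ENSG00000163359, chromosome 2, 237324003 to 237414375), the long chain of type VI collagen, had 98.4, 110.4 and 123 CPM with 3750 nM PROTAC and 136, 144 and 161 CPM with 1500 nM PROTAC. For COL6A3, SGI-1776 gave 63.3, 72.96 and 85.1 CPM at 3750 nM and 97.5, 109 and 119 CPM at 1500 nM, against 138, 148 and 165 CPM with DMSO. All 6 libraries with 3750 nM SGI-1776 lay below all others, and the 1500 nM PROTAC range covered most of that of DMSO. It fell with 3750 nM PROTAC (-0.44 ± 0.07 (SE, FDR = 7.35e-06)), 3750 nM SGI-1776 (-1.02 ± 0.07 (FDR = 6.66e-13)) and 1500 nM SGI-1776 (-0.45 ± 0.07 (FDR = 2.56e-05)), with -0.022 (95% interval -0.16 to 0.11) for 1500 nM PROTAC. Both Reps gave nearly the same fall with 3750 nM SGI-1776, -1.04 in Rep 1 alone and -1.01 in Rep 2 alone. COL6A2 had 1701, 1827 and 1948 CPM with 3750 nM PROTAC and 1471, 1643 and 1897 CPM with 1500 nM PROTAC. For COL6A2, SGI-1776 gave 1407, 1535 and 1638 CPM at 3750 nM and 1427, 1609 and 1741 CPM at 1500 nM, against 1732, 1832 and 2096 CPM with DMSO. It fell with SGI-1776 at 3750 nM (-0.29 ± 0.06 (FDR = 2.10e-04)) and 1500 nM (-0.22 ± 0.06 (FDR = 0.0121)), and COL6A1 at 3750 nM (-0.23 ± 0.07 (FDR = 0.0164)). Neither passed with 3750 nM PROTAC, COL6A2 at -0.030 (95% interval -0.15 to 0.089) and COL6A1 at -0.13 (-0.28 to 0.025), although COL6A1 passed with Rep as a block (FDR = 0.0195).

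COL12A1 (ENSG00000111799, chromosome 6, 75084326 to 75206051), a FACIT collagen of dense connective tissue, had 51.8, 67.4 and 71.5 CPM with 3750 nM PROTAC and 80.03, 87.9 and 108 CPM with 1500 nM PROTAC. For COL12A1, SGI-1776 gave 40.4, 51.5 and 60.1 CPM at 3750 nM and 58.8, 61.6 and 73.9 CPM at 1500 nM, against 68.3, 74.9 and 84.2 CPM with DMSO. It was lowest with 3750 nM SGI-1776, without overlap with DMSO (-0.58 ± 0.09 (SE, FDR = 3.84e-06)), and highest with 1500 nM PROTAC (0.26 ± 0.09 (FDR = 0.121), and 0.0362 with Rep as a block). COL17A1 (ENSG00000065618, chromosome 10, 104031286 to 104085957), a membrane-spanning collagen of hemidesmosomes, had 2.01, 2.44 and 2.95 CPM with 3750 nM PROTAC and 1.55, 2.05 and 2.53 CPM with 1500 nM PROTAC. For COL17A1, SGI-1776 gave 3.497, 4.07 and 4.58 CPM at 3750 nM and 2.69, 2.91 and 3.596 CPM at 1500 nM, against 1.56, 2.06 and 2.82 CPM with DMSO. It rose with SGI-1776 at 3750 nM (0.88 ± 0.13 (FDR = 2.58e-06); 0.88 in Rep 1 alone and 0.88 in Rep 2 alone) and at 1500 nM (0.44 ± 0.13 (FDR = 0.0247)). The value at 1500 nM did not pass in either Rep alone (FDR = 0.190 and 0.148). Of the remaining collagens, COL5A1 (log2 fold change -0.34) and COL13A1 (-0.23), another membrane-spanning collagen, fell with 3750 nM SGI-1776, and neither changed with the PROTAC.

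LAMA4 (ENSG00000112769, chromosome 6, 112108760 to 112254939) had the largest fold change of the 59 members in any comparison with DMSO. It had 6.66, 7.94 and 8.61 CPM with 3750 nM PROTAC and 4.78, 5.93 and 7.602 CPM with 1500 nM PROTAC. For LAMA4, SGI-1776 gave 12.98, 15.8 and 17.5 CPM at 3750 nM and 7.16, 9.74 and 10.9 CPM at 1500 nM, against 4.05, 5.62 and 7.58 CPM with DMSO. All libraries with 3750 nM SGI-1776 lay above all others, while the ranges with 1500 nM SGI-1776 and with either dose of the PROTAC overlapped DMSO. The level with 3750 nM SGI-1776 was 2.66 times that with DMSO (log2 1.41 ± 0.12 (SE, FDR = 1.66e-10); 1.38 in Rep 1 alone and 1.46 in Rep 2 alone), and LAMA4 also rose with 1500 nM SGI-1776 (0.71 ± 0.12 (FDR = 1.92e-04)) and 3750 nM PROTAC (0.45 ± 0.12 (FDR = 0.00799)). LAMA2, the alpha chain of muscle laminin and the lowest laminin, rose with 3750 nM SGI-1776 (0.46 ± 0.18 (FDR = 0.0448)), and LAMB2 rose too (0.40 ± 0.12 (FDR = 0.00891)). The rise of LAMA2 did not pass in either Rep alone (FDR = 0.0717 and 0.301).

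LAMB3 (ENSG00000196878, chromosome 1, 209614870 to 209652466), the beta chain of the hemidesmosomal laminin, had 311, 326 and 348 CPM with 3750 nM PROTAC and 259, 286 and 311 CPM with 1500 nM PROTAC. For LAMB3, SGI-1776 gave 201, 219.7 and 229.8 CPM at 3750 nM and 223, 237 and 247 CPM at 1500 nM, against 272, 310.4 and 353 CPM with DMSO. It fell with SGI-1776 at 3750 nM (-0.52 ± 0.05 (SE, FDR = 1.02e-09)) and 1500 nM (-0.39 ± 0.05 (FDR = 2.96e-06)), both without overlap, and gave 0.075 ± 0.05 (FDR = 0.309) with 3750 nM PROTAC. LAMA3, its alpha chain, had 249, 277 and 295 CPM with 3750 nM PROTAC and 222, 228 and 257 CPM with 1500 nM PROTAC. For LAMA3, SGI-1776 gave 207, 248 and 273 CPM at 3750 nM and 216, 239 and 251 CPM at 1500 nM, against 224, 230.5 and 255 CPM with DMSO. LAMA3 rose with 3750 nM PROTAC (0.24 ± 0.06 (FDR = 0.00241)), overlapping DMSO, and with 3750 nM SGI-1776 it was at 0.055 (95% interval -0.063 to 0.17). LAMC1, the gamma chain of most other laminins, fell with 3750 nM PROTAC (-0.24 ± 0.05 (FDR = 0.00104)) and rose with 3750 nM SGI-1776 (0.15 ± 0.05 (FDR = 0.0249); FDR = 0.420 in Rep 2 alone).

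Among the subunits of the laminin receptors, ITGA3 (ENSG00000005884, chromosome 17, 50055968 to 50090481) had 1692, 1790 and 1821 CPM with 3750 nM PROTAC and 1323, 1422 and 1524 CPM with 1500 nM PROTAC. For ITGA3, SGI-1776 gave 1182, 1235 and 1298 CPM at 3750 nM and 1222, 1281 and 1306 CPM at 1500 nM, against 1317, 1406 and 1464 CPM with DMSO. Every library with 3750 nM PROTAC lay above every other library. ITGA3 rose with 3750 nM PROTAC (0.34 ± 0.03 (SE, FDR = 7.36e-09); 0.38 in Rep 1 alone and 0.28 in Rep 2 alone) and fell with SGI-1776 at 3750 nM (-0.18 ± 0.03 (FDR = 1.06e-04)) and 1500 nM (-0.13 ± 0.03 (FDR = 0.00831)), where Rep 1 alone did not pass (FDR = 0.273). With 1500 nM PROTAC its value was 0.012 (95% interval -0.058 to 0.082).

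ITGB4 (ENSG00000132470, chromosome 17, 75721328 to 75757818), the beta subunit of hemidesmosomes, had 621, 655 and 783 CPM with 3750 nM PROTAC and 505, 531 and 592 CPM with 1500 nM PROTAC. For ITGB4, SGI-1776 gave 726, 754 and 784 CPM at 3750 nM and 672, 676 and 736 CPM at 1500 nM, against 557, 577 and 599.9 CPM with DMSO. It rose with 3750 nM PROTAC (0.22 ± 0.04 (SE, FDR = 4.00e-04)), 3750 nM SGI-1776 (0.39 ± 0.04 (FDR = 4.20e-08)) and 1500 nM SGI-1776 (0.25 ± 0.04 (FDR = 2.50e-04)), with no overlap with DMSO in any of the 3, and gave -0.088 ± 0.04 (FDR = 0.329) with 1500 nM PROTAC. ITGA6, its only known partner, had 254, 264 and 280.1 CPM with 3750 nM PROTAC and 264, 282 and 295 CPM with 1500 nM PROTAC. For ITGA6, SGI-1776 gave 258, 295 and 330.3 CPM at 3750 nM and 291, 294 and 321 CPM at 1500 nM, against 275, 288 and 323 CPM with DMSO. ITGA6 fell with 3750 nM PROTAC (-0.15 ± 0.05 (FDR = 0.0202)), and with 3750 nM SGI-1776 it was at 0.011 (95% interval -0.086 to 0.11). The fall of ITGA6 did not pass in either Rep alone (FDR = 0.0625 and 0.0860). ITGB1 had 1445, 1473 and 1614 CPM with 3750 nM PROTAC and 1297, 1468 and 1529 CPM with 1500 nM PROTAC. For ITGB1, SGI-1776 gave 1255, 1296 and 1390 CPM at 3750 nM and 1206, 1276 and 1416 CPM at 1500 nM, against 1234, 1362 and 1461 CPM with DMSO. ITGB1 rose with 3750 nM PROTAC (0.16 ± 0.05 (FDR = 0.0159)), the ranges overlapping.

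Among the members, ITGA1, ITGA2 and ITGA10 pair with ITGB1 as collagen receptors. ITGA10 (ENSG00000143127, chromosome 1, 145891208 to 145910189), known from cartilage, had 3.21, 4.85 and 5.899 CPM with 3750 nM PROTAC and 2.804, 3.78 and 6.04 CPM with 1500 nM PROTAC. For ITGA10, SGI-1776 gave 8.16, 11.7 and 15.9 CPM at 3750 nM and 5.62, 8.704 and 10.5 CPM at 1500 nM, against 3.36, 6.18 and 6.96 CPM with DMSO. Libraries with 3750 nM SGI-1776 lay above those with DMSO, and the values were 1.097 ± 0.19 (SE, FDR = 2.32e-05) at 3750 nM and 0.56 ± 0.19 (FDR = 0.0456) at 1500 nM of SGI-1776. With the PROTAC they were -0.24 ± 0.20 (FDR = 0.457) at 3750 nM and -0.42 ± 0.20 (FDR = 0.288) at 1500 nM. ITGA2 rose with 3750 nM PROTAC (0.20 ± 0.06 (FDR = 0.0227); FDR = 0.233 in Rep 2 alone) and 3750 nM SGI-1776 (0.24 ± 0.06 (FDR = 0.00307); FDR = 0.237 in Rep 2 alone), and ITGA1 did not pass in the 30 libraries without a block but did with Rep as a block in all 4 comparisons with DMSO.

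ITGAV, which pairs with ITGB1, ITGB3, ITGB5, ITGB6 or ITGB8 to bind vitronectin, fibronectin or latent TGF-beta, had 58.7, 63.7 and 70.7 CPM with 3750 nM PROTAC and 56.8, 63.98 and 75.4 CPM with 1500 nM PROTAC. For ITGAV, SGI-1776 gave 69.2, 76.03 and 86.8 CPM at 3750 nM and 62.9, 73.3 and 82.5 CPM at 1500 nM, against 57.2, 64.8 and 81.1 CPM with DMSO. It rose with 3750 nM SGI-1776 (0.21 ± 0.08 (SE, FDR = 0.0427)); the value was 0.38 in Rep 1 alone (FDR = 4.31e-04) and 0.041 in Rep 2 alone (FDR = 0.754). ITGB3 (ENSG00000259207, chromosome 17, 47253846 to 47311816) had 0.656, 0.843 and 1.48 CPM with 3750 nM PROTAC and 0.686, 0.924 and 1.13 CPM with 1500 nM PROTAC. For ITGB3, SGI-1776 gave 1.66, 2.04 and 2.13 CPM at 3750 nM and 0.931, 1.24 and 1.58 CPM at 1500 nM, against 0.669, 0.990 and 1.11 CPM with DMSO. ITGB3 rose with 3750 nM SGI-1776 (1.101 ± 0.18 (FDR = 1.10e-05); 1.27 in Rep 1 alone and 0.95 in Rep 2 alone), and was at 0.46 ± 0.18 (FDR = 0.0990) with 1500 nM SGI-1776, where it passed with Rep as a block (FDR = 0.0343). For ITGB3 51.6% of the exon bases overlap the annotated gene AC068234.1 on the same strand, which had no counts, so its own count is uncertain.

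ITGB6 (ENSG00000115221, chromosome 2, 160099666 to 160200313), an epithelial subunit whose pair with ITGAV activates TGF-beta, had 3.46, 3.76 and 4.12 CPM with 3750 nM PROTAC and 3.59, 4.92 and 6.71 CPM with 1500 nM PROTAC. For ITGB6, SGI-1776 gave 6.103, 7.25 and 9.36 CPM at 3750 nM and 6.52, 8.03 and 8.39 CPM at 1500 nM, against 5.98, 7.01 and 7.27 CPM with DMSO. All libraries with 3750 nM PROTAC lay below all DMSO libraries. It fell with the PROTAC at 3750 nM (-0.85 ± 0.12 (SE, FDR = 1.93e-06); -0.81 in Rep 1 alone and -0.90 in Rep 2 alone) and 1500 nM (-0.43 ± 0.11 (FDR = 0.0395); FDR = 0.224 in Rep 2 alone), and with 3750 nM SGI-1776 its value was 0.16 ± 0.11 (FDR = 0.298). ITGB6 shares 20.6% of its exon bases with AC092153.1 on the same strand, a gene with 0.0267 CPM. ITGB5 rose with SGI-1776 at 3750 nM (0.28 ± 0.04 (FDR = 1.27e-06)) and 1500 nM (0.17 ± 0.04 (FDR = 0.00363)), and ITGB8 at 3750 nM (0.27 ± 0.11 (FDR = 0.0475); FDR = 0.319 in Rep 2 alone).

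ITGA5, whose pair with ITGB1 is the classical fibronectin receptor, had 47.97, 51.1 and 54.1 CPM with 3750 nM PROTAC and 46.9, 50.2 and 52.8 CPM with 1500 nM PROTAC. For ITGA5, SGI-1776 gave 41.3, 47.4 and 51.01 CPM at 3750 nM and 43.5, 47.9 and 50.97 CPM at 1500 nM, against 49.9, 53.2 and 56.9 CPM with DMSO. It fell with SGI-1776 at 3750 nM (-0.21 ± 0.05 (SE, FDR = 0.00100)) and 1500 nM (-0.17 ± 0.05 (FDR = 0.0163); FDR = 0.317 in Rep 1 alone). ITGA4 (ENSG00000115232, chromosome 2, 181457202 to 181536187), a fibronectin and VCAM1 receptor subunit best known from leukocytes, had 0.651, 1.06 and 1.698 CPM with 3750 nM PROTAC and 1.15, 1.73 and 2.13 CPM with 1500 nM PROTAC. For ITGA4, SGI-1776 gave 0.575, 0.817 and 1.01 CPM at 3750 nM and 0.996, 1.13 and 1.61 CPM at 1500 nM, against 1.41, 1.51 and 1.75 CPM with DMSO. Its libraries with 3750 nM SGI-1776 all lay below DMSO, a change of -0.94 ± 0.19 (FDR = 1.61e-04). ITGB2, the leukocyte beta subunit, had 47.2, 49.7 and 55.3 CPM with 3750 nM PROTAC, 64.9, 67.2 and 71.02 CPM with 3750 nM SGI-1776 and 53.01, 54.99 and 59.3 CPM with DMSO. It rose with SGI-1776 at 3750 nM (0.29 ± 0.04 (FDR = 1.85e-06)) and 1500 nM (0.17 ± 0.04 (FDR = 0.00462)) and fell with 3750 nM PROTAC (-0.13 ± 0.04 (FDR = 0.0240); FDR = 0.491 in Rep 2 alone). PTPRC, the pan-leukocyte marker, averaged 0.277 CPM.

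Of the 4 genes that match by letters only, ITGB1BP1, which encodes a protein that binds the ITGB1 tail, fell with 3750 nM SGI-1776 (-0.22 ± 0.04 (SE, FDR = 1.87e-04)), as did ITGB3BP, a centromere protein gene (-0.24 ± 0.09 (FDR = 0.0388)), and ITGBL1 (-0.12 ± 0.04 (FDR = 0.0175)). The fall of ITGBL1 was -0.033 in Rep 1 alone (FDR = 0.694) and -0.22 in Rep 2 alone (FDR = 0.00319). None of the 4 changed with the PROTAC against DMSO. The sources used here do not give the strand setting of the counting. Of the exon bases of ITGB1BP1, 33.1% lie opposite exons of ASAP2 and 70.5% of those of ITGBL1 lie opposite exons of FGF14, so their counts are uncertain. The same holds for ITGB7 (42.1% shared with ZNF740 on the opposite strand) and COL18A1 (16.4% shared with SLC19A1).

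Set directly against each other at equal dose, the compounds differed over 36 members at 3750 nM and 26 at 1500 nM, more of them lower than higher with the PROTAC. At 3750 nM 12 members were higher and 24 lower with the PROTAC than with SGI-1776 (61% of members, against 31.2% of all genes, 17.6% higher and 13.5% lower). With scaling by library size only, 7 were higher and 26 lower, and the share of all genes was not counted. Summed per Rep without a block, 4 were higher and 14 lower, and 8.01% of all genes passed. At 1500 nM 7 were higher and 19 lower (44.1%, against 25.2% of all genes, 14.4% higher and 10.7% lower). Here the sums per Rep without a block left 2 higher and 3 lower, and 1.27% of all genes. The 2 pairs of groups were tested with p-values adjusted over all genes within each pair. The median log2 difference of the 26 collagens was -0.22 at 3750 nM and -0.23 at 1500 nM, beside 0.00023 and -0.0094 for all genes.

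COL21A1 and COL2A1 differed most. COL21A1 averaged 0.338 and 0.354 CPM with the PROTAC at 3750 and 1500 nM, under the 0.5 CPM threshold. It averaged 1.54 and 1.02 CPM with SGI-1776 at these doses and 0.720 CPM with DMSO. Its place among the members thus rests on the groups where it was high, and its difference is given as a description. At 3750 nM COL21A1 was lower with the PROTAC by log2 -2.18 (95% interval -2.72 to -1.64, FDR = 9.52e-08) and COL2A1 by -2.11 (-2.36 to -1.85, FDR = 2.81e-14), with no overlap in either gene. At 1500 nM the differences were -1.495 (-2.03 to -0.96) and -1.11 (-1.35 to -0.87). Lower with the PROTAC at both doses were also COL3A1 (-1.12 at 3750 nM and -0.67 at 1500 nM), COL9A2 (-0.74 and -0.57), COL17A1 (-0.75 and -0.55), COL4A5 (-0.83 and -0.60) and COL5A2 (-0.50 and -0.25).

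Within the collagen IV pairs, COL4A1 differed by -0.29 at 3750 nM and -0.23 at 1500 nM, and COL4A2 by -0.28 and -0.22, all 4 passing. COL4A6 differed at 3750 nM (-0.68 ± 0.14 (FDR = 3.41e-04)), while at 1500 nM its difference of -0.20 (95% interval -0.49 to 0.082, FDR = 0.309) did not pass, and did with Rep as a block (FDR = 0.0397). Among receptors and laminins, ITGA10 (-1.33 at 3750 nM and -0.99 at 1500 nM), ITGB6 (-1.004 and -0.64), LAMA4 (-0.96 and -0.63), ITGB2 (-0.42 and -0.25) and LAMC1 (-0.39 and -0.26) were lower with the PROTAC at both doses. ITGB3 was lower at 3750 nM (-1.07 ± 0.18 (FDR = 2.03e-05)), and its 1500 nM difference of -0.46 (95% interval -0.83 to -0.088, FDR = 0.0624) passed only with Rep as a block (FDR = 0.0199).

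Higher with the PROTAC than with SGI-1776 at both doses were LAMB3 (0.59 ± 0.05 (SE, FDR = 5.34e-11) at 3750 nM and 0.27 ± 0.05 (FDR = 9.77e-05) at 1500 nM), COL6A3 (0.58 ± 0.07 (FDR = 3.55e-08) and 0.43 ± 0.07 (FDR = 1.25e-05)) and COL12A1 (0.35 ± 0.09 (FDR = 0.00225) and 0.50 ± 0.09 (FDR = 7.45e-05)). ITGA3 was higher by 0.52 at 3750 nM and 0.14 at 1500 nM, ITGA4 by 0.55 and 0.48, and ITGB1 by 0.20 and 0.14. The ITGA4 differences passed in Rep 1 alone (FDR = 0.0388 at 3750 nM and 0.0385 at 1500 nM) and not in Rep 2 alone (0.443 and 0.467). COL6A2 was higher at 3750 nM (0.26 ± 0.06 (FDR = 8.75e-04)), with 0.077 (95% interval -0.042 to 0.20) at 1500 nM. Not passing at 3750 nM, COL1A1 had a 95% interval of the difference of -0.28 to 0.47 and LAMB1 of -0.15 to 0.019.

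**Figure D5:**
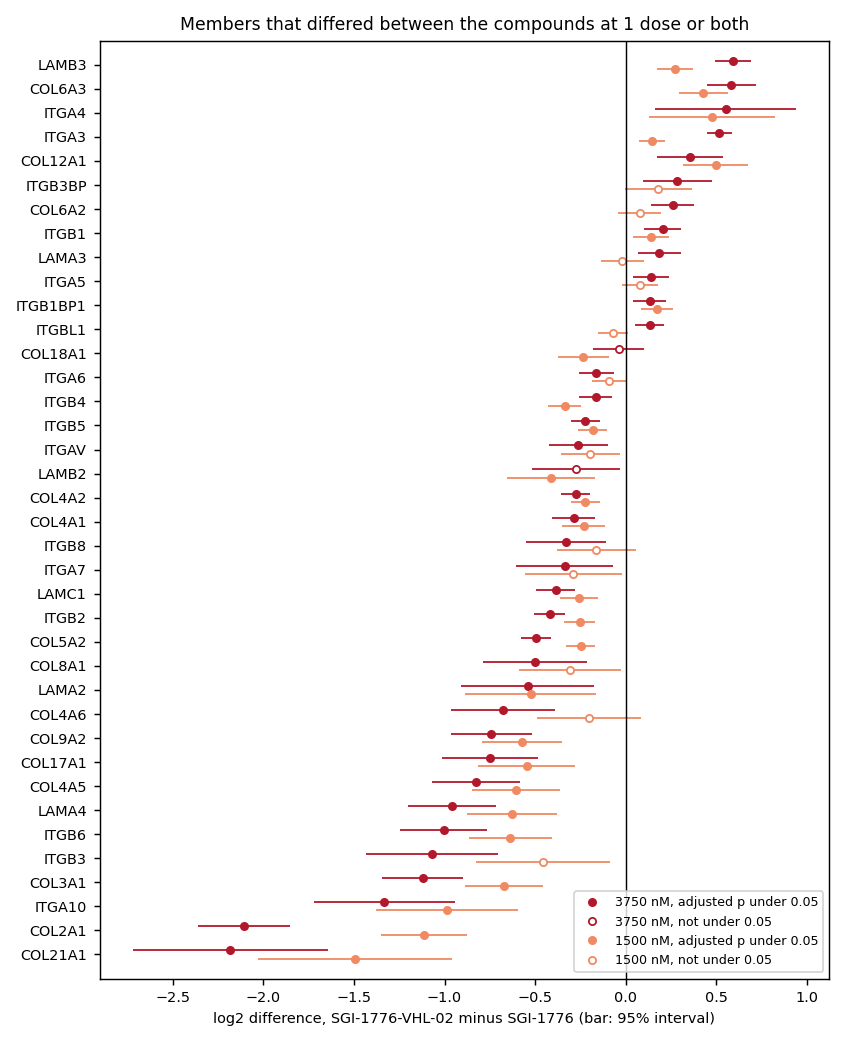
Log2 difference of SGI-1776-VHL-02 minus SGI-1776 with its 95% interval at 3750 nM (red) and 1500 nM (orange) for the 38 members that passed at 1 dose or both; filled points have an FDR under 0.05. Points left of 0 are lower with SGI-1776-VHL-02, led by COL21A1 (-2.18 at 3750 nM), and points on the right are led by LAMB3 (0.59). COL21A1 is a member only through the groups where it was high.

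Between the doses of the PROTAC, 7 members were higher and 10 lower at 3750 nM than at 1500 nM (28.8%, against 19.0% of all genes, 9.23% higher and 9.74% lower), and all 7 collagens that changed were lower. On sums per Rep without a block 2 members passed, both lower, and 0.777% of all genes. COL2A1 (-0.66 ± 0.13 (SE, FDR = 2.46e-04)), COL3A1 (-0.55 ± 0.11 (FDR = 5.20e-04)), COL12A1 (-0.49 ± 0.09 (FDR = 1.18e-04)) and COL6A3 (-0.42 ± 0.07 (FDR = 2.10e-05)) were lower at the higher dose, and ITGA3 (0.33 ± 0.03 (FDR = 2.15e-08)) and ITGB4 (0.31 ± 0.04 (FDR = 5.64e-06)) were higher. COL21A1 was at -0.094 (95% interval -0.72 to 0.53) between doses of the PROTAC. Between the doses of SGI-1776 4 were higher and 3 lower at 3750 nM (11.9%, against 9.15% of all genes, 4.46% higher and 4.69% lower), and 17 passed with Rep as a block, as did 17.3% of all genes. Without a low-count filter 3 passed, in Rep 1 alone 9 and in Rep 2 alone 3. On sums per Rep edgeR called 13 with the block and, without it, none of the members and 0.0% of all genes, with 7 members at an unadjusted p under 0.05. The shares of all genes without the filter, in each Rep alone, on blocked sums and at an unadjusted p were not counted. LAMA4 (0.70 ± 0.12 (FDR = 1.55e-04)), ITGB3 (0.64 ± 0.17 (FDR = 0.0146)), COL17A1 (0.45 ± 0.13 (FDR = 0.0214)) and ITGB4 (0.14 ± 0.04 (FDR = 0.0499)) were higher, and COL6A3 (-0.57 ± 0.07 (FDR = 1.14e-06)), ITGA4 (-0.61 ± 0.19 (FDR = 0.0367)) and COL12A1 (-0.35 ± 0.09 (FDR = 0.0104)) were lower.

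Whether the compound difference itself changed with dose was tested by the interaction, the PROTAC minus SGI-1776 difference at 3750 nM less that at 1500 nM. It passed for 3 members above 0 and 2 below (8.47%, against 2.67% of all genes, 1.66% above and 1.02% below), and for 8 with Rep as a block, against 6.21% of all genes. Without the 4 libraries under 0.5% mitochondrial counts it passed for 2, ITGA3 and COL2A1, and the share of all genes there was not counted. On sums per Rep it passed for 5 members and 2.68% of all genes with the block. Without the block edgeR called none of the members and 0.0% of all genes, with 5 members at an unadjusted p under 0.05, counted for members only. It was -0.99 ± 0.17 (SE, FDR = 4.03e-04) for COL2A1 and -0.25 ± 0.06 (FDR = 0.0113) for COL5A2, whose deficit with the PROTAC was wider at 3750 nM. It was 0.37 ± 0.05 (FDR = 9.99e-06) for ITGA3, 0.32 ± 0.07 (FDR = 0.00683) for LAMB3 and 0.20 ± 0.06 (FDR = 0.0473) for ITGBL1, each further toward the PROTAC at 3750 nM. The value for ITGBL1 did not pass on sums per Rep with the block (FDR = 0.161) or in either Rep alone (FDR = 0.561 and 0.0642). COL5A2 did not pass in Rep 1 alone (FDR = 0.0829). For LAMA4 it was -0.33 (95% interval -0.68 to 0.014, FDR = 0.451).

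The remaining members passed in none of the 9 contrasts without a block. These were LAMA5, LAMB1, LAMC3, ITGA1, ITGAE, ITGA2B, COL1A1, COL7A1, COL8A2, COL9A3, COL11A2, COL16A1, COL24A1, COL27A1 and ITGB1BP2, 15 of the 59. LAMB1 was at -0.10 (95% interval -0.18 to -0.013; FDR = 0.0423 with Rep as a block) for 3750 nM PROTAC and -0.032 (-0.12 to 0.052) for 3750 nM SGI-1776. ITGA1 passed with Rep as a block in all 4 comparisons with DMSO, at 0.21 with 3750 nM PROTAC, 0.26 with 1500 nM PROTAC, 0.20 with 3750 nM SGI-1776 and 0.23 with 1500 nM SGI-1776 (FDR = 0.00466, 0.00364, 0.00285 and 0.00250). COL1A1, the main fibrillar chain of bone and skin, was lower in Rep 2 than in Rep 1 in all groups without overlap (mean log2 difference -0.57), and its value with 3750 nM SGI-1776 was -0.29 (95% interval -0.67 to 0.078; FDR = 0.00184 with Rep as a block).

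Genes that fold, cut or bind these proteins were counted in lists drawn up beside the members, and their shares are set beside the 21.8% of all genes that changed with 3750 nM PROTAC and the 35.6% that changed with 3750 nM SGI-1776. Of 31 genes for collagen folding, hydroxylation and cross-linking, 6 rose and 7 fell with 3750 nM PROTAC (41.9%), and 6 rose and 6 fell with 3750 nM SGI-1776 (38.7%). LOXL2, a lysyl oxidase that cross-links collagen, was at -0.25 ± 0.05 (SE, FDR = 4.58e-04) with 3750 nM PROTAC and -0.62 ± 0.05 (FDR = 1.30e-10) with 3750 nM SGI-1776, and TLL1, a procollagen-processing protease of the tolloid family, was at -0.62 ± 0.06 (FDR = 4.13e-09) and 0.21 ± 0.06 (FDR = 0.00611). Of 8 tested basement membrane partners, HSPG2, which encodes the proteoglycan perlecan, fell with 3750 nM PROTAC (-0.38 ± 0.09 (FDR = 0.00220)) and rose with 3750 nM SGI-1776 (0.59 ± 0.09 (FDR = 6.26e-06)); in the list 2 rose and 2 fell with 3750 nM PROTAC, and 3 rose and 1 fell with 3750 nM SGI-1776 (4 of 8 each).

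Of 26 integrin activators and focal adhesion proteins, 1 rose and 7 fell with 3750 nM PROTAC (30.8%, against 21.8% of all genes) and 3 rose and 11 fell with 3750 nM SGI-1776 (53.8%, against 35.6%), with median log2 fold changes of -0.055 and -0.10. PXN, the adaptor paxillin, was at -0.12 ± 0.03 (SE, FDR = 0.0107) with 3750 nM PROTAC and -0.33 ± 0.03 (FDR = 5.94e-09) with 3750 nM SGI-1776, and the kinase gene SRC at 0.12 ± 0.04 (FDR = 0.0186) and -0.37 ± 0.04 (FDR = 2.18e-09). NEDD9, a focal adhesion scaffold, fell with 3750 nM PROTAC (-0.28 ± 0.08 (FDR = 0.0103)) and rose with 3750 nM SGI-1776 (0.42 ± 0.08 (FDR = 7.30e-05)). Of 12 other matrix receptors, 1 rose and 2 fell with 3750 nM PROTAC (25%) and 4 rose and 3 fell with 3750 nM SGI-1776 (58.3%). BCAM, a receptor for LAMA5-containing laminins, fell with the PROTAC at 3750 nM (-0.56 ± 0.05 (FDR = 2.03e-10)) and 1500 nM (-0.31 ± 0.05 (FDR = 2.20e-04)) and rose with 3750 nM SGI-1776 (0.17 ± 0.05 (FDR = 0.00411)). Of 3 hemidesmosome partners, CD151, a tetraspanin bound to laminin-binding integrins, rose with 3750 nM PROTAC (0.20 ± 0.03 (FDR = 7.47e-06)) and PLEC, the linker plectin, fell with 3750 nM SGI-1776 (-0.35 ± 0.09 (FDR = 0.00377)).

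Of 19 tested matrix proteases and inhibitors, 5 rose and 3 fell with 3750 nM PROTAC (42.1%) and 5 rose and 7 fell with 3750 nM SGI-1776 (63.2%). MMP14, a membrane-bound collagenase, rose with 3750 nM PROTAC (0.32 ± 0.04 (SE, FDR = 3.92e-07)) and fell with 3750 nM SGI-1776 (-0.24 ± 0.04 (FDR = 1.98e-05)). Of 12 tested integrin ligands outside these families, 1 rose and 2 fell with 3750 nM PROTAC (25%), and 4 rose and 3 fell with 3750 nM SGI-1776 (58.3%). CTGF, a matricellular integrin ligand, fell with the PROTAC at 3750 nM (-1.06 ± 0.08 (FDR = 2.64e-11)) and 1500 nM (-0.54 ± 0.08 (FDR = 1.12e-04)) and rose with 3750 nM SGI-1776 (0.31 ± 0.08 (FDR = 0.00310)).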

How the data were processed

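RNA from PC3 cells was sequenced in 30 libraries. Per the labels' protocols, poly-T beads selected the messenger RNA and random hexamers primed its copying; dUTP and dTTP second strands are both named, so the strand setting is unknown. The submitters' processing notes name featureCounts 1.5.0-p3 and GRCh38/hg38; for the aligner, the sources used here give no name. The deposited table holds raw counts of 58735 genes that the authors did not normalize, with 20677 genes at 0 throughout. Reads carry no molecular identifiers, so errors cover the spread between libraries and counting only.

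Members were taken at a mean of at least 0.5 CPM, computed from unscaled library totals. The analysis used edgeR 4.0.16 in R 4.3.3: filterByExpr kept 17499 genes, TMM scaling was applied, and a quasi-likelihood model of the 5 groups was fitted to 30 libraries. Tests were two-sided, for 9 contrasts: 4 with DMSO, 2 between compounds at equal dose, 2 between doses and 1 interaction. P-values were adjusted by Benjamini-Hochberg over all genes tested (FDR), with a threshold of 0.05. CPM values printed for libraries use TMM-scaled library sizes, and TPM was computed from counts and the gene lengths in the table. The SE is the absolute log2 fold change divided by the square root of F. The fitting was tested on simulated data.

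Coordinates are those of the count table, identical to GENCODE 29 for all 59 members. Promoter windows (250 bases before to 50 after a start) are RefSeq's, on GRCh38.p14.

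The Rep numbers were taken to pair the groups, since Rep 2 minus Rep 1 differences correlated across genes in all 10 pairs of groups (0.507 to 0.672). Libraries of 1 group and Rep differed by more than sampling noise, with a chi-square per degree of freedom of 1.95 to 23.3.

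The members and gene lists were chosen with earlier results of these data known. Values per library are given for up to 4 members in each direction that passed both in the 30-library fit and in a blocked fit of the sums per Rep, for contrasts with DMSO and between compounds, and for COL4A1, COL4A2, COL4A5, COL4A6, ITGA6, ITGB4, ITGB1 and ITGAV; up to 3 genes are named per list. Some genes that enter the counts are not reported here by name. COL5A2 and ITGB2 were added after their values were seen. Alternatives were other scalings, no low-count filter, DESeq2 1.42.0, Rep as a replicate block, libraries summed per Rep, only the groups compared, each Rep left out, libraries under 0.5% mitochondrial counts left out, and a 1 CPM member threshold.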

Additional observations from a re-analysis of the deposited data

Results flagged for a closer look

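In 130 sets of 6 libraries (26 members in 5 groups) the lowest or highest library stood apart from the nearest of the others by a gap over Dixon's critical share of the range in 6 sets, and chance gives about 1 in 20. The lowest library with 3750 nM PROTAC had 6.66 CPM of LAMA4 (nearest 7.90). With 1500 nM SGI-1776 the lowest library had 1222 CPM of ITGA3 (nearest 1277), and the highest had 735.6 CPM of ITGB4 (nearest 685.3). In DMSO the highest libraries had 255.0 CPM of LAMA3 (nearest 235.2), 1.75 CPM of ITGA4 (nearest 1.52) and 62.2 CPM of COL4A1 (nearest 58.5).

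The difference between PROTAC and SGI-1776 at 3750 nM less that at 1500 nM differed from 0 for 5 members by edgeR's interaction test. It was 0.37 for ITGA3 (adjusted p = 9.99e-06), 0.32 for LAMB3 (0.00683), 0.20 for ITGBL1 (0.0473, and 0.161 on sums per Rep with Rep as a block), -0.25 for COL5A2 (0.0113) and -0.99 for COL2A1 (0.000403).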

How the results depend on the processing

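Over 163 called values of single members in 9 contrasts, none reversed under any alternative, and all 163 kept their call with Rep as a replicate block; 162 did with DESeq2, which gave no adjusted p for 1. Libraries summed per Rep without a block kept 45 and lost 118, Rep 2 alone lost 42, Rep 1 alone 31 and no low-count filter 31; the cause was not tested. The counts below are members called, and the share of all genes was counted only where it is given above. With Rep as a replicate block they were 29 for 3750 nM PROTAC against DMSO (19 without), 16 for 1500 nM PROTAC (6), 24 for 1500 nM SGI-1776 (15), 17 between doses of SGI-1776 (7) and 8 for the interaction (5), and with libraries summed per Rep in the replicate block 30, 16, 24, 13 and 5 for the same contrasts. Summed per Rep without a block, they were 7 for 3750 nM PROTAC, 0 for 1500 nM PROTAC, 13 for 3750 nM SGI-1776, 0 for 1500 nM SGI-1776, 18 and 5 between compounds at 3750 and 1500 nM, 2 between doses of the PROTAC, 0 between doses of SGI-1776 and 0 for the interaction; at an unadjusted p under 0.05 the 4 counts of 0 were 8, 15, 7 and 5 in that order. Without a low-count filter 3 were called for 1500 nM PROTAC and 3 between doses of SGI-1776; with only the groups compared 2 for 1500 nM PROTAC; without the 4 libraries under 0.5% mitochondrial counts 3 for 1500 nM PROTAC and 2 for the interaction. Leaving out Rep 1 or Rep 2 gave 16 to 23 for 3750 nM PROTAC, 6 and 6 for 1500 nM PROTAC, 30 to 34 for 3750 nM SGI-1776, 9 to 13 for 1500 nM SGI-1776, 29 to 34 and 23 to 31 between compounds at 3750 and 1500 nM, 14 to 19 between doses of the PROTAC, 3 to 9 between doses of SGI-1776 and 4 to 5 for the interaction. With 2 samples a group after summing, the spread between Reps limits what can pass.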

Other observations

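Of the 27 matching genes under 0.5 CPM, ITGA8 had no count in any of the 30 libraries. COL1A2, whose chain joins with that of COL1A1 in type I collagen, had no count in 4 of the 30 libraries. It averaged 0.05955 TPM in DMSO, against 19.9 ± 3.81 TPM for COL1A1. LAMA1, the alpha chain of embryonic laminin, averaged 0.157 CPM. In DMSO, ITGAL, ITGAM, ITGAX and ITGAD, the alpha subunits known to pair with ITGB2, averaged 0.00361, 0.1304, 0.003494 and 0.01686 TPM. ITGB2 averaged 31.3 ± 0.947 TPM in the same libraries. COL4A3 and COL4A4, the remaining type IV chains, had counts in every library (0.428 and 0.410 CPM on average).

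Between Reps, 28 members were lower in Rep 2 than in Rep 1 in all 5 groups and 7 were higher in all 5. The same count was not made over all genes, so it does not set the members apart. Over all genes tested, Rep 2 minus Rep 1 differences also correlated between groups (0.507 to 0.672). The ranges of the Reps did not overlap in any group for COL6A1 (mean log2 difference of Rep 2 minus Rep 1 -0.21), COL5A1 (-0.31), COL4A6 (-0.41) and COL1A1 (-0.57).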
